A study of Homo sapiens with 16 samples.

Results

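Aminoacyl-tRNA synthetases are the enzymes that attach each amino acid to its tRNA. The 36 synthetase genes described here, 20 for enzymes of the cytosol and 16 for enzymes of mitochondria, were taken by symbol from the 63187 genes of an RNA-seq table of neuroblastoma cells. Each symbol matched 1 row, and all 36 passed the low-count filter that left 19530 tested genes. A synthetase first activates the amino acid with ATP and then transfers it to the tRNA. Cells keep separate enzymes for the cytosol and for mitochondria, most of them from different genes. Uncharged tRNA activates the kinase GCN2 (EIF2AK4), which phosphorylates eIF2 alpha, and translation of the transcription factor ATF4 then rises. Many cytosolic synthetase genes are known targets of ATF4, together with genes for amino acid synthesis and transport.

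The labels name the cells SK-N-BE(2), a MYCN-amplified line from a human neuroblastoma, while the library names begin with BE2c, so whether the line itself or its subclone BE(2)-C was used is uncertain. Libraries fell into 4 groups of 4. Wild-type cells (WT) were set beside cells given HIF-2α, the oxygen-regulated transcription factor encoded by EPAS1, by transfection. It came as the full-length protein (FL) or as the shortened forms labelled NCTAD and cIDR, which the series text writes ΔN-CTAD and Δc-IDR. All groups grew at 21% oxygen with 10% serum, and all libraries came from this 1 line. The vector, the time after transfection and any mock transfection of the WT cells are not given in the sources used here, so transfection itself cannot be told apart from HIF-2α in comparisons with WT. The labels number the replicates 1 to 4 and give the same number as the batch, without saying what a batch was (a culture, an extraction or a run).

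Totals ranged from 38.6 to 56.1 M counts per library. EPAS1 stood at 3.81 to 11.1 TPM (transcripts per 1 M transcripts, a level scaled for transcript length and depth) in the 4 WT libraries and at 1451 to 6463 TPM in the 12 transfected ones, as the labels say. Markers of adrenergic neuroblastoma cells were present throughout, with a summed level of 3271 to 3939 TPM over 9 genes. MYCN alone, amplified in this line, made up 1778 to 2347 TPM of it. TH was the lowest marker, at 0.926 to 3.18 TPM in batches 1, 3 and 4 and 6.66 to 11.2 TPM in batch 2. The 4 libraries of batch 2 stood apart from the other 12 across the transcriptome, and results that rest on them are given per batch.

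Promoter sequences are shown first for 5 synthetases that rose in batch 2 and whose promoter holds a shared element, then for 1 that rose without it and for 1 that fell. They come from the RefSeq promoter table on GRCh38.p14, which holds 39 entries for 30 of the 36 genes. CARS1, GARS1 and SARS1 have more than 1 entry each. For CARS1 and GARS1 the one with the match is shown, and no SARS1 entry holds a match. AARS2, LARS1, TARS3, VARS1, VARS2 and YARS1 were not matched. Each run covers positions −220 to 30 around the transcription start, 5′ to 3′ on the gene's own strand. Capitals mark a match to TGATGNAA on either strand, the core of the element bound by ATF4 with a C/EBP partner, and in all 5 genes the match lies on the strand opposite to transcription.
AARS1, chr16:70289477-70289726, minus strand: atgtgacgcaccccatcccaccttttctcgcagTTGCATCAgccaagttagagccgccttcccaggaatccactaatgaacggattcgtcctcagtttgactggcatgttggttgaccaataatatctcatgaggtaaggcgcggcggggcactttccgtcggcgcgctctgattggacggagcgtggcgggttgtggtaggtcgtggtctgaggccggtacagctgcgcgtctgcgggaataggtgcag
CARS1, chr11:3057394-3057643, minus strand: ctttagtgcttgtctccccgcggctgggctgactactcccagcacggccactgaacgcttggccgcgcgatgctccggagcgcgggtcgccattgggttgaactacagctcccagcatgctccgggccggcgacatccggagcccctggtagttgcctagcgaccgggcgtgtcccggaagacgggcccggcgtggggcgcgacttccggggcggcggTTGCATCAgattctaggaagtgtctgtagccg
GARS1, chr7:30594658-30594907, plus strand: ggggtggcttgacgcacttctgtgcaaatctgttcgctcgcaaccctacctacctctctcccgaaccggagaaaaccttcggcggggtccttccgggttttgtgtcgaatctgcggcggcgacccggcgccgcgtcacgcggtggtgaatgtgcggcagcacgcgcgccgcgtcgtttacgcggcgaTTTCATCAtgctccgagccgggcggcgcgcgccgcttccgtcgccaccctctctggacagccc
IARS1, chr9:92293668-92293917, minus strand: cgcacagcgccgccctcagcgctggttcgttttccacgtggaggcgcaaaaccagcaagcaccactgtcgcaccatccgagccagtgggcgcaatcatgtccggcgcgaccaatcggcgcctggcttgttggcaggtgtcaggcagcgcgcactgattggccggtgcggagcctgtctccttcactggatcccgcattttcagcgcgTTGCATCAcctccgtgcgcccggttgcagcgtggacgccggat
MARS1, chr12:57487848-57488097, plus strand: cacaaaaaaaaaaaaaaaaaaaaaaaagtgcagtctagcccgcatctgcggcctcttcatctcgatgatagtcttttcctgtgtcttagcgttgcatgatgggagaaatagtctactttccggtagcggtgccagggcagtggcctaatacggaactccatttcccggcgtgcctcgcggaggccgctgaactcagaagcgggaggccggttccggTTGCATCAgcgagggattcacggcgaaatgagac
SARS1, chr1:109213698-109213947, plus strand: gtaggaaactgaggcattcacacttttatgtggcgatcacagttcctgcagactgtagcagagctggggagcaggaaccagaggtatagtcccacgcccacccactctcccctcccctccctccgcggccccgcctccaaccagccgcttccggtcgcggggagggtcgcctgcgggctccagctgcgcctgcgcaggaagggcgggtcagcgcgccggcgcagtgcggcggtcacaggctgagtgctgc
FARSA, chr19:12933682-12933931, minus strand: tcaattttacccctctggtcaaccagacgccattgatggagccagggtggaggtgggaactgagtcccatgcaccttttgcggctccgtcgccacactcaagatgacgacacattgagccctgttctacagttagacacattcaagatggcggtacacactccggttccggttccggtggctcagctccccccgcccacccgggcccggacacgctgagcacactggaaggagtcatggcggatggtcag

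The match reads TGATGCAA in AARS1, CARS1, IARS1 and MARS1 and TGATGAAA in GARS1. It lay across the start itself in CARS1 (positions −2 to 6) and MARS1 (−4 to 4), just upstream of it in IARS1 (−13 to −6) and GARS1 (−33 to −26), and farther upstream in AARS1 (−187 to −180). Over the full window of 250 bases before to 50 bases after the start, TARS1 (3 to 10), NARS1 (15 to 22) and YARS2 (−197 to −190) also held the 8 letters. Of the genes with an entry, 7 of 16 cytosolic and 1 of 14 mitochondrial synthetases had a match in at least 1 promoter. Among all 27305 genes of the table the share was 4.46%, and among all 35116 promoters 3.62%. The 7 cytosolic genes were all on the list of synthetases known as ATF4 targets, of which 10 had an entry. No match was found among the 6 other cytosolic genes with an entry. A shorter motif, ACGTG, the core of the HIF-bound element, was found in 4 of 21 cytosolic and 6 of 18 mitochondrial synthetase promoters, against 21.4% of all promoters. It overlaps CACGTG, the E-box bound by MYC proteins, which was found in 1 of 21 and 4 of 18 against 7.26%. Counts for these motifs are of promoter entries, not genes. EARS2 has overlapping entries, and the same site is counted in each of them for both motifs. TGACGTCA, the element bound by CREB and ATF dimers, was found in no synthetase promoter and in 1.85% of all promoters. These matches are letters in a window, not measured binding sites.

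On the TPM scale the cytosolic enzymes were the more abundant. Mean levels over 16 libraries ran from 7.50 to 259 TPM among the 20 cytosolic genes (median 112) and from 3.30 to 65.5 TPM among the 16 mitochondrial genes (median 24.9). The WT levels that follow are means of batches 1, 3 and 4 (SD, n = 3), with the batch 2 library given apart where it differs. SARS1, which charges serine tRNA and also selenocysteine tRNA, was the highest, at 225 ± 11.1 TPM, and at 374 TPM in batch 2. Next came GARS1, whose gene gives both the cytosolic and the mitochondrial glycine enzyme, at 199.6 ± 8.66 TPM, and 336 TPM in batch 2. MARS1, the methionine enzyme, stood at 180.3 ± 9.60 TPM, and at 249.4 TPM in batch 2. The order SARS1, GARS1, MARS1 was the same in 4 of 4 WT libraries and in 15 of all 16, and SARS1 was the highest of the 36 in 16 of 16. The order went on with TARS1 (168 ± 9.98 TPM) and KARS1 (167 ± 8.85 TPM), which did not differ beyond their spread, and with FARSA, WARS1, VARS1 and IARS1, from 154 to 126 TPM. IARS2, the mitochondrial isoleucine enzyme, led its compartment at 68.3 ± 5.89 TPM and ranked 18th of all. FARSB (37.1 ± 2.13 TPM) and CARS1 (29.4 ± 0.647 TPM) were the low cytosolic members beside TARS3, a second cytosolic threonine enzyme, at 7.31 ± 1.02 TPM. In batch 2 CARS1, at 66.2 TPM, stood above FARSB, at 36.6 TPM. PARS2, the mitochondrial proline enzyme, was the lowest of the 36 at 3.13 ± 0.206 TPM.

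**Figure D1:**
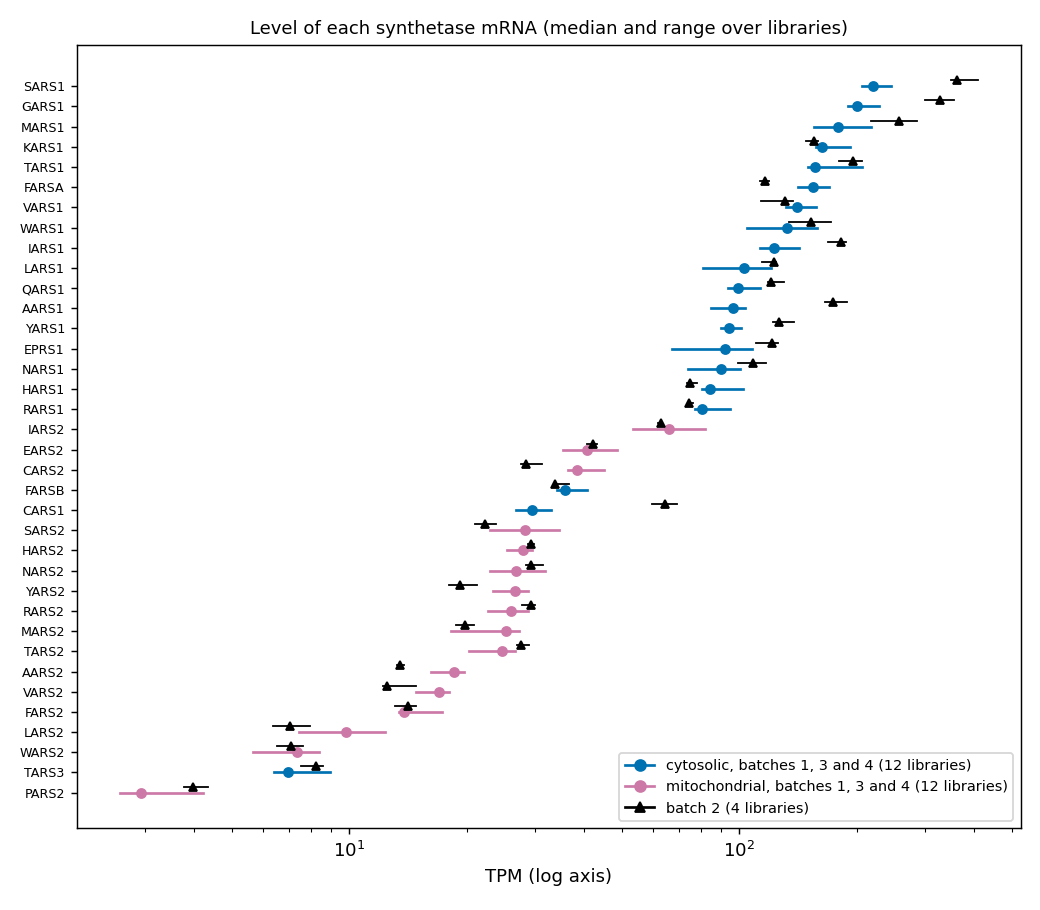
Level of each of the 36 synthetase mRNAs in TPM on a log axis, as the median (point) and range (line) over the 12 libraries of batches 1, 3 and 4, with the 4 libraries of batch 2 as black triangles and lines. SARS1 is highest and PARS2 lowest, and the batch 2 range lies clear of the others for CARS1, AARS1, SARS1 and GARS1.

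In batch 2 the cytosolic and the mitochondrial enzymes moved apart. Of the 36 genes, 28 differed between batch 2 and the mean of batches 1, 3 and 4 at an adjusted p under 0.05, 14 higher and 14 lower. The test was edgeR's quasi-likelihood test with batch and group in the model, and p-values were adjusted by Benjamini-Hochberg over all tested genes. Over all genes 53.9% were called in this comparison, 27.7% higher and 26.1% lower. Among the cytosolic enzymes 12 of 20 rose and 6 fell, and the median log2 fold change was 0.19. Among the mitochondrial enzymes 2 of 16 rose and 8 fell, with a median of −0.14, against a median of 0.035 over all tested genes. The mitochondrial median was −0.087 against batch 1 alone, and −0.052 on log2(TPM + 1), where the cytosolic median was 0.27. Batch 2 is 1 batch of 4 libraries, and the p-values measure only the spread between these libraries, which may share a culture or a run.

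The rise was led by CARS1, the cysteine enzyme (chromosome 11, 3000922 to 3057613, minus strand, GENCODE 29 on GRCh38). Its promoter entry shown above holds a TGATGNAA match across the start, and its other entry holds none. In batch 2 the libraries of WT, FL, NCTAD and cIDR, in this order, held 103, 99.4, 112 and 96.3 CPM (counts per 1 M counts), and the other 12 libraries held 44.9 to 52.1 CPM with a median of 48.0. No library of batch 2 came near the others, and the log2 fold change was 1.10 ± 0.04 (SE), with an adjusted p of 4.5e-11.

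AARS1, the alanine enzyme (chromosome 16, 70252295 to 70289543, minus strand), stood in the same order of groups at 418, 395, 449.8 and 401 CPM in batch 2, against 221 to 269.6 CPM (median 230.2) elsewhere. Its log2 fold change was 0.82 ± 0.05 (adjusted p = 2.9e-09). SARS1 (chromosome 1, 109213918 to 109238169, plus strand) had 421, 403, 475 and 413 CPM in batch 2 against 245 to 302 CPM (median 270.1). Its log2 fold change was 0.66 ± 0.04 (adjusted p = 1.3e-08), and its promoter entries hold no match. In both genes the lowest batch 2 library lay above the highest of the other 12. GARS1 (chromosome 7, 30594681 to 30634033, plus strand) had 543, 526, 586 and 502 CPM against 315 to 372 CPM (median 337), and its log2 fold change was 0.65 ± 0.04 (adjusted p = 9.3e-09). IARS1, the isoleucine enzyme (chromosome 9, 92210207 to 92293756, minus strand), had 571, 554, 589.6 and 538 CPM against 366 to 411 CPM (median 391), a log2 fold change of 0.53 ± 0.04 (adjusted p = 4.2e-08). The groups of libraries did not overlap for either gene.

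MARS1 (chromosome 12, 57475445 to 57517569, plus strand) had 366, 346, 396 and 333 CPM in batch 2 against 252 to 283 CPM (median 266), a log2 fold change of 0.43 ± 0.04 (adjusted p = 7.5e-07). Of its exon bases 5.05% overlap those of DDIT3 on the other strand, and DDIT3 rose by 1.5 on the log2 scale. The library kit keeps strand, but whether the counting used it is not given in the sources used here. YARS1, the tyrosine enzyme (chromosome 1, 32775237 to 32818153, minus strand), had 196, 198, 217 and 197 CPM against 144 to 182 CPM (median 155), a log2 fold change of 0.36 ± 0.04 (adjusted p = 1.7e-06), again without overlap. Smaller rises were those of EPRS1, a fused glutamate and proline enzyme, at 0.28 ± 0.04, and of TARS1, NARS1, QARS1 and LARS1, at log2 fold changes of 0.20, 0.20, 0.18 and 0.15. These serve threonine, asparagine, glutamine and leucine. The calls of TARS1 and QARS1 were lost against batch 1 alone (adjusted p = 0.11 and 0.17). Over all genes 45.8%, 47.1% and 45.5% were called against batches 1, 3 and 4 alone.

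Read against background knowledge of ATF4, 11 of the 13 synthetases on the target list rose, VARS1, the valine enzyme, fell, and WARS1, the tryptophan enzyme, was not called (median log2 fold change 0.36). This list was drawn up with earlier results of these data known and lends no independent support to a direction. Of the 7 cytosolic enzymes off the list only QARS1 rose, 5 fell and TARS3 was not called (median −0.17). By catalytic class, 6 of 18 class I enzymes rose and 8 fell, and 7 of 17 class II enzymes rose and 6 fell. EPRS1 was left out of both classes. Among all tested genes 27.7% were called higher and 26.1% lower.

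FARSA, one of the subunits of the phenylalanine enzyme, fell the most among cytosolic genes. It lies on chromosome 19 at 12922479 to 12934037 on the minus strand. Its batch 2 levels were 133, 135, 129 and 130.2 CPM, below every other library at 162 to 216 CPM (median 180.4), with a log2 fold change of −0.48 ± 0.04 and an adjusted p of 3.6e-07. The partner subunit FARSB changed by −0.15 ± 0.04. Further falls were those of HARS1 (histidine, −0.25), VARS1 (−0.24), RARS1 (arginine, −0.22) and KARS1 (lysine, −0.17). The KARS1 gene also gives the mitochondrial lysine enzyme, as GARS1 does for glycine, and the pair went opposite ways. The calls of FARSB and KARS1 were lost on log2(TPM + 1) (limma, adjusted p = 0.24 and 0.11), and that of KARS1 also against batch 3 alone (0.18).

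The 8 mitochondrial enzymes that fell did so by 0.14 to 0.54 on the log2 scale. LARS2, for leucine (chromosome 3, 45388506 to 45549421, plus strand), had 22.4, 19.99, 20.4 and 19.9 CPM in batch 2 against 25.7 to 33.3 CPM (median 30.7), a log2 fold change of −0.54 ± 0.05 (adjusted p = 9.7e-07). AARS2, for alanine (chromosome 6, 44299654 to 44313326, minus strand), had 41.5, 44.6, 44.2 and 43.5 CPM against 56.6 to 67.6 CPM (median 62.2), a log2 fold change of −0.52 ± 0.05 (adjusted p = 4.1e-07). CARS2, for cysteine (chromosome 13, 110641412 to 110713603, minus strand), had 30.6, 31.4, 30.8 and 32.8 CPM against 39.5 to 47.3 CPM (median 42.1), a log2 fold change of −0.43 ± 0.04 (adjusted p = 9.3e-07). In all 3 the batch 2 libraries were the 4 lowest of 16. YARS2, for tyrosine (chromosome 12, 32727490 to 32755902, minus strand), had 26.0, 25.9, 25.0 and 24.5 CPM against 30.6 to 35.3 CPM (median 31.9), a log2 fold change of −0.35 ± 0.05 (adjusted p = 1.7e-05). Its promoter window holds TGATGGAA. The part of promoter matches in any of these changes was not tested.

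VARS2, MARS2 and SARS2, for valine, methionine and serine, fell by 0.42, 0.37 and 0.35 on the log2 scale without overlap. VARS2 shares 22.0% of its exon bases with GTF2H4 and SARS2 shares 46.2% with another gene on the same strand, so their counts are uncertain. IARS2 changed by −0.14 ± 0.05, a call that was lost on log2(TPM + 1), against batch 1 alone, in the 12 transfected libraries alone (adjusted p = 0.075) and without the WT library of batch 2 (0.063). The 2 rises in this compartment were TARS2, for threonine, at 0.22 ± 0.04, and PARS2 at 0.33 ± 0.08, the latter on levels of only 4.51 to 6.63 CPM and lost against batch 4 alone (adjusted p = 0.053). The 8 genes not called were TARS3 and WARS1 in the cytosol and NARS2, WARS2, RARS2, FARS2, EARS2 and HARS2 in mitochondria, with log2 fold changes from −0.14 to 0.11. The threshold fell between IARS2 (adjusted p = 0.018) and NARS2 (0.057). HARS1 and HARS2 lie head to head on chromosome 5, and 11.7% of the HARS2 exon bases overlap HARS1 on the other strand. HARS1 fell while HARS2 stood at 0.02 ± 0.04.

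**Figure D2:**
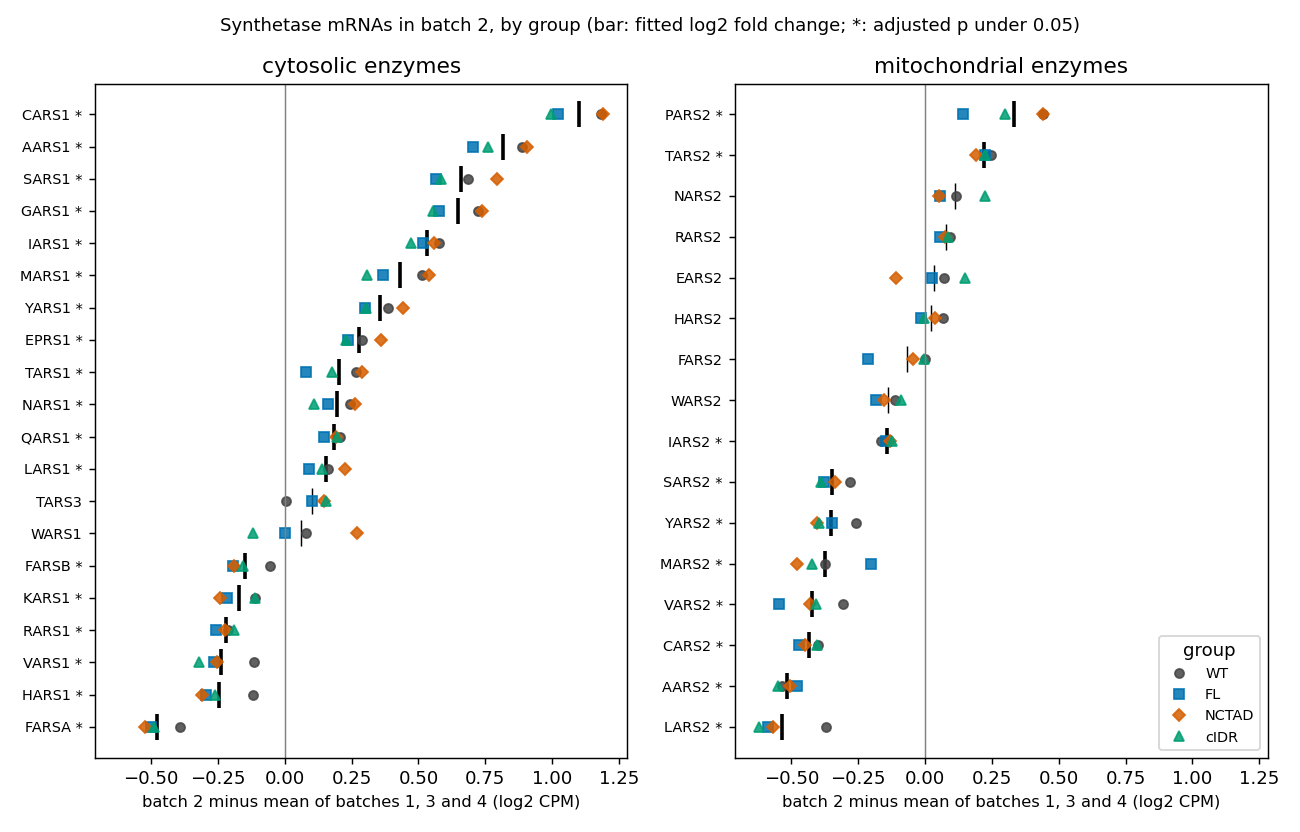
Difference in log2 CPM between the batch 2 library of each group and the mean of the same group's libraries of batches 1, 3 and 4, for 20 cytosolic (left) and 16 mitochondrial genes (right), with 1 symbol per group. Black bars are the fitted log2 fold changes and asterisks mark the 28 genes called, from CARS1 at 1.10 to LARS2 at −0.54.

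For 13 amino acids a cytosolic gene was set beside the mitochondrial one, with TARS1 taken for threonine and TARS3 left out. The cytosolic log2 fold change lay above the mitochondrial one in 10 of 13 pairs. In 7 pairs, those for alanine, cysteine, isoleucine, leucine, methionine, serine and tyrosine, the cytosolic gene rose and the mitochondrial gene fell, both called. Among these, the counts of SARS2 are uncertain and the call of IARS2 was lost under several alternatives, as given above. The median difference within a pair was 0.67. It was largest for cysteine, at 1.53 between CARS1 and CARS2, followed by alanine at 1.33, serine at 1.00, methionine at 0.80 and tyrosine at 0.71. Histidine (−0.27), arginine (−0.30) and threonine (−0.02) went the other way. These pairs describe 1 contrast of the same libraries and are not replicates.

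Averaged over the genes in each library, the cytosolic minus the mitochondrial mean log2 CPM was 2.70, 2.70, 2.77 and 2.65 in the WT, FL, NCTAD and cIDR libraries of batch 2. In the other 12 libraries it ran from 2.28 to 2.43 with a median of 2.34. In TPM, the summed cytosolic level was 2716 to 3074 in batch 2 against 2173 to 2587 elsewhere. The mitochondrial sum was 367 to 373 against 372 to 446, so that the 2 ranges touched.

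**Figure D3:**
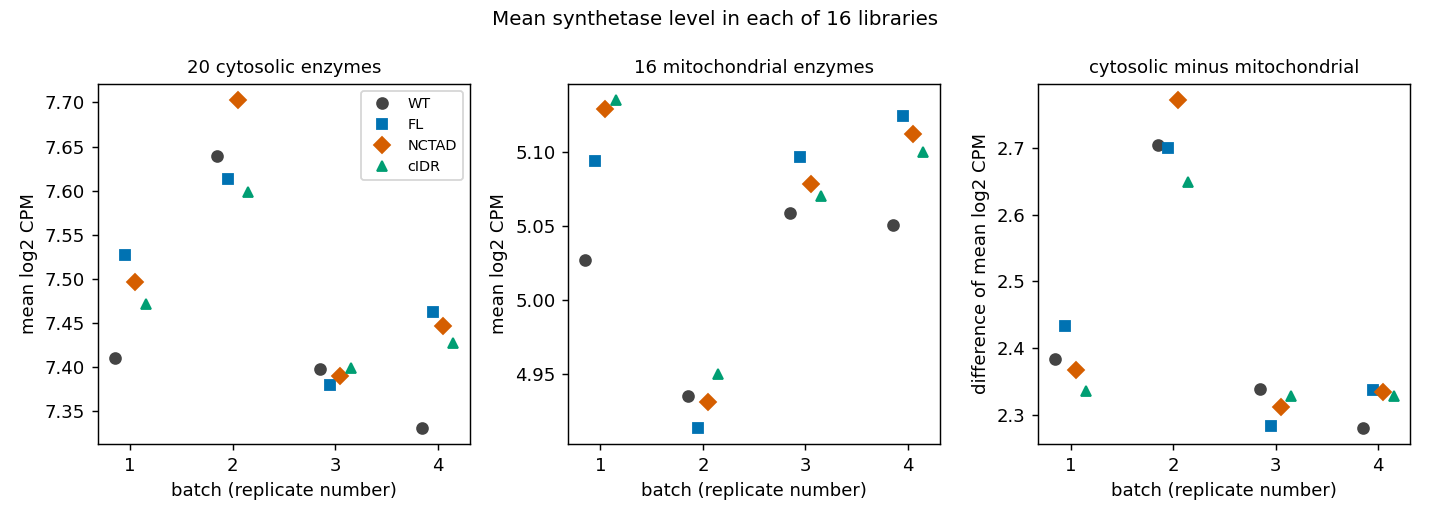
Mean log2 CPM of the 20 cytosolic genes, of the 16 mitochondrial genes, and the difference between the 2 means, in each of the 16 libraries by batch, with 1 symbol per group. All 4 libraries of batch 2 are the highest in the cytosolic and difference panels and the lowest in the mitochondrial one.

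Several cytosolic synthetases sit in a multisynthetase complex held together by the scaffold proteins AIMP1, AIMP2 and EEF1E1. Of its 7 enzymes listed here, EPRS1, IARS1, LARS1, MARS1 and QARS1 rose and KARS1 and RARS1 fell. The scaffolds all fell, AIMP2 by 0.64, EEF1E1 by 0.38 and AIMP1 by 0.14 on the log2 scale. Mitochondrial glutamine tRNA is charged indirectly, through an amidotransferase. Its subunits QRSL1 (−0.42) and GATB (−0.22) fell, while GATC and the formyltransferase MTFMT were not called. Among 9 mitochondrial translation factors 1 rose and 4 fell (GFM1 −0.47, MTIF3 −0.36, TSFM −0.21, MTRF1L −0.17). Among 9 genes of tRNA maturation and export 3 rose, among them the tRNA exporter XPOT (0.32), and 5 fell, among them the tRNA end-processing nuclease ELAC2 (−0.59). Among 9 genes of tRNA gene transcription 2 rose and 4 fell, with the RNA polymerase III subunit POLR3B lowest (−0.54). In this comparison 27.7% of all tested genes were called higher and 26.1% lower. With lists this short, nothing is read from these counts.

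Other programmes moved with the synthetases in batch 2, where 27.7% of all tested genes were called higher and 26.1% lower. Of 25 tested genes of the amino acid response 24 rose and 1 fell, with a median log2 fold change of 1.10. They included CHAC1, a glutathione-degrading enzyme (3.72), DDIT4, an inhibitor of mTORC1 signalling (2.85), STC2 (1.84) and SESN2, a leucine sensor (2.13). ATF4 mRNA rose by 0.68 ± 0.04, from 436 to 538 TPM in the other batches to 777 to 811 TPM. The gene that fell, ALDH18A1 (−0.42), encodes an enzyme of proline synthesis. Of the eIF2 alpha kinases EIF2AK4 rose (0.36) and EIF2AK3 fell (−0.47). Hypoxia markers rose as well, 12 of 14, with a median of 0.88 and with PDK1, BNIP3, VEGFA and P4HA1 at 2.81, 1.73, 1.5 and 0.92. MYCN did not pass the test (−0.02), nor did EPAS1 (−0.45).

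Markers of other cell types and states in batch 2 were as follows. Of 5 fibroblast genes COL1A1, DCN and LUM rose, and their summed level was 67.3 to 72.2 TPM against 25.0 to 38.8, nearly all of it LUM and DCN. COL1A2 was at 0 in 3 of 4 batch 2 libraries and in 10 of the other 12, and COL3A1 stayed below 0.2 TPM. The 4 leukocyte genes summed to 1.37 to 1.88 TPM against 0.911 to 1.47, nearly all CD14, with PTPRC at 0 in 2 of 4 and in 10 of 12. Proliferation markers summed to 1019 to 1113 TPM against 1186 to 1454. Of these 8 genes 1 rose and 4 fell, beside 27.7% and 26.1% of all tested genes. Totals in batch 2 were 47.8 to 55.3 M counts against 38.6 to 56.1 M. The part of any of these in the synthetase differences was not tested.

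**Figure D4:**
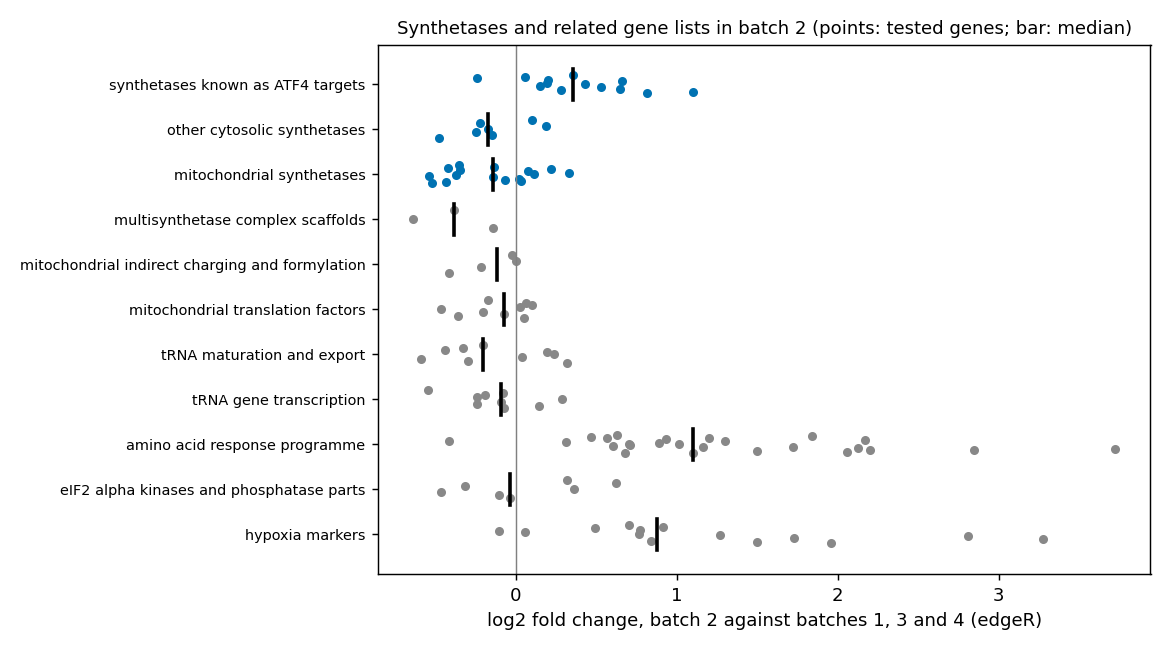
Log2 fold change between batch 2 and batches 1, 3 and 4 for every tested gene of 11 lists, with the median as a bar; blue points are synthetases. The ATF4-target synthetases centre on 0.36 and the mitochondrial ones on −0.14, while the amino acid response and hypoxia lists centre on 1.10 and 0.88.

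The batch 2 pattern was present in all 4 groups. Each of the 28 called genes had the same sign in the 4 groups. Of the 14 that rose, the largest group difference was in NCTAD for 10 and in WT for 4. Of the 14 that fell, it was in NCTAD for 5, in FL and in cIDR for 4 each, and in WT for 1. For SARS1 the differences were 0.79 in NCTAD, 0.69 in WT, 0.58 in cIDR and 0.57 in FL. Each of these rests on 1 batch 2 library, and whether the groups differ was not tested. In batch 2 the EPAS1 difference from WT in log2 CPM was also smaller, 5.55 to 6.28 over the 3 constructs, against 7.02 to 8.67 in the other batches. The WT library of batch 2 had the highest EPAS1 level of the WT libraries, 11.1 TPM against a WT median of 4.83. This level enters the smaller difference.

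The remaining batches differed much less. Between batches 3 and 4 none of the 36 genes was called by edgeR, and none of all genes (0.00%). At an unadjusted p under 0.05 there were 424 genes of all (2.17%). Between batch 1 and batches 3 and 4, 12 genes were called, 9 higher and 3 lower, against 18.6% of all genes, 10.8% higher and 7.80% lower. The changes were at most 0.23 in size (HARS1), and included RARS2 (0.19), FARSA (0.19) and YARS1 (0.18) among the higher and LARS2 (−0.21), EPRS1 (−0.15) and TARS2 (−0.12) among the lower. FARSA was thus higher in batch 1 and lower in batch 2, and YARS1 higher in both.

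The second question was whether the HIF-2α constructs changed the synthetases. No synthetase passed the test in any of the 6 comparisons between groups, with edgeR's quasi-likelihood test on group alone or with the batch as a replicate block, and none did with DESeq2 or with limma on TPM. Over all genes the share called was 0.0102% for FL against WT, 0.0256% for NCTAD against WT and 0.0102% for cIDR against WT, and 0.00% for each pair of constructs. With the block these shares were 0.102%, 0.456% and 0.486%, then 0.00%, 0.0307% and 0.00512% for NCTAD against FL, cIDR against FL and cIDR against NCTAD. At an unadjusted p under 0.05 no synthetase passed without the block, where the share of all genes was 1.14%, 1.42% and 1.37% for FL, NCTAD and cIDR against WT and 0.886%, 0.906% and 0.609% for NCTAD against FL, cIDR against FL and cIDR against NCTAD. With the block 1, 2 and 2 synthetases passed at that level against WT, where 5.11%, 5.96% and 5.45% of all genes did, and none passed between constructs, where 3.69%, 3.68% and 2.15% did.

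The precision of these comparisons depended on the model. With group alone, intervals of 2 SE on either side of the fitted log2 fold changes reached from −0.69 to 0.77 for FL, −0.62 to 0.84 for NCTAD and −0.72 to 0.74 for cIDR against WT over the 36 genes, and from −0.83 to 0.80 between constructs. With the block, fitted log2 fold changes over the 36 genes ran from −0.07 to 0.13 for FL, −0.05 to 0.14 for NCTAD and −0.07 to 0.16 for cIDR, each against WT. Intervals of 2 SE then stayed within −0.24 to 0.26, −0.24 to 0.27 and −0.24 to 0.29. Between constructs these intervals stayed within −0.30 and 0.24. Median differences of the cytosolic enzymes without the block were 0.04, 0.07 and 0.02 for FL, NCTAD and cIDR against WT, and those of the mitochondrial enzymes 0.05, 0.04 and 0.04, but on log2(TPM + 1) those of NCTAD and cIDR fell below 0. By batch, the cytosolic mean of FL against WT was 0.12, −0.03, −0.02 and 0.13 in batches 1 to 4. That of NCTAD was 0.09, 0.06, −0.01 and 0.12, and that of cIDR 0.06, −0.04, 0.001 and 0.10. The mitochondrial means of cIDR against WT were 0.11, 0.02, 0.01 and 0.05. The cytosolic mean of NCTAD against WT was the largest over the 4 batches, at 0.06 ± 0.05 (SD), and the differences of both compartments were about the size of the spread between batches. In the same libraries the mean log2 CPM of the 14 hypoxia markers was higher than in WT in all 4 batches for each construct, by 0.39 ± 0.13 for FL, 0.56 ± 0.12 for NCTAD and 0.70 ± 0.09 for cIDR (SD, n = 4 batches). Their summed TPM was lower in FL than in WT in batch 1, at 619.5 against 682 TPM. The mean log2 CPM of the 9 adrenergic markers was also higher than in WT in 4 of 4 batches, by 0.14 ± 0.08, 0.21 ± 0.13 and 0.20 ± 0.10 for FL, NCTAD and cIDR, while their summed TPM was lower than in WT in batches 1 and 3 for FL and NCTAD and in batch 3 for cIDR.

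TARS2 had the smallest unadjusted p against WT with the block. Its levels in batches 1 to 4 were 33.8, 43.5, 37.8 and 38.6 CPM in WT, 37.7, 46.4, 40.0 and 41.5 in FL, 40.1, 46.4, 40.5 and 41.5 in NCTAD, and 37.1, 46.7, 41.9 and 41.0 in cIDR. Each construct lay above WT in 4 of 4 batches, while the groups overlapped across batches. Of the 36 synthetases 2, 9 and 6 were higher than WT in 4 of 4 batches for FL, NCTAD and cIDR, and none was lower in all 4. Over all tested genes 5.35%, 8.86% and 10.6% were higher in 4 of 4 batches and 3.95%, 6.48% and 7.15% were lower. The log2 fold changes with the block were 0.11, 0.14 and 0.12 (SE 0.04 each), with edgeR adjusted p of 0.92, 0.49 and 0.71. These comparisons share the WT libraries, so they do not bear each other out.

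FARS2, the mitochondrial phenylalanine enzyme, had 13.1, 13.6, 14.3 and 13.4 CPM in WT and 14.4, 15.2, 15.04 and 16.2 in cIDR. The groups did not overlap, and the log2 fold change with the block was 0.16 ± 0.07 (edgeR adjusted p = 0.82). NCTAD, at 15.3, 14.4, 14.4 and 15.02 CPM, did not overlap WT either (0.12 ± 0.07, adjusted p = 0.90), while FL did. HARS2 was the other gene without overlap, in cIDR against WT (0.09 ± 0.05). Groups thus did not overlap for 0, 1 and 2 of 36 synthetases in FL, NCTAD and cIDR against WT, beside 0.814%, 1.43% and 1.47% of all tested genes. With so few genes, nothing is read from these counts. Next in order of p with the block came FARSA (0.10) and TARS3 (0.13) for FL, YARS1 (0.10) and CARS1 (0.11) for NCTAD, and CARS2 (0.10) for cIDR, none called. Between constructs RARS2 led in NCTAD against FL (0.09), TARS1 in cIDR against FL (−0.11) and GARS1 in cIDR against NCTAD (−0.09). MARS1 and SARS1, RARS2 and LARS1, and MARS1 and IARS1 came next in these 3 comparisons. Without the block FARS2 and TARS3 led against WT, and WARS1 or TARS1 between constructs.

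**Figure D5:**
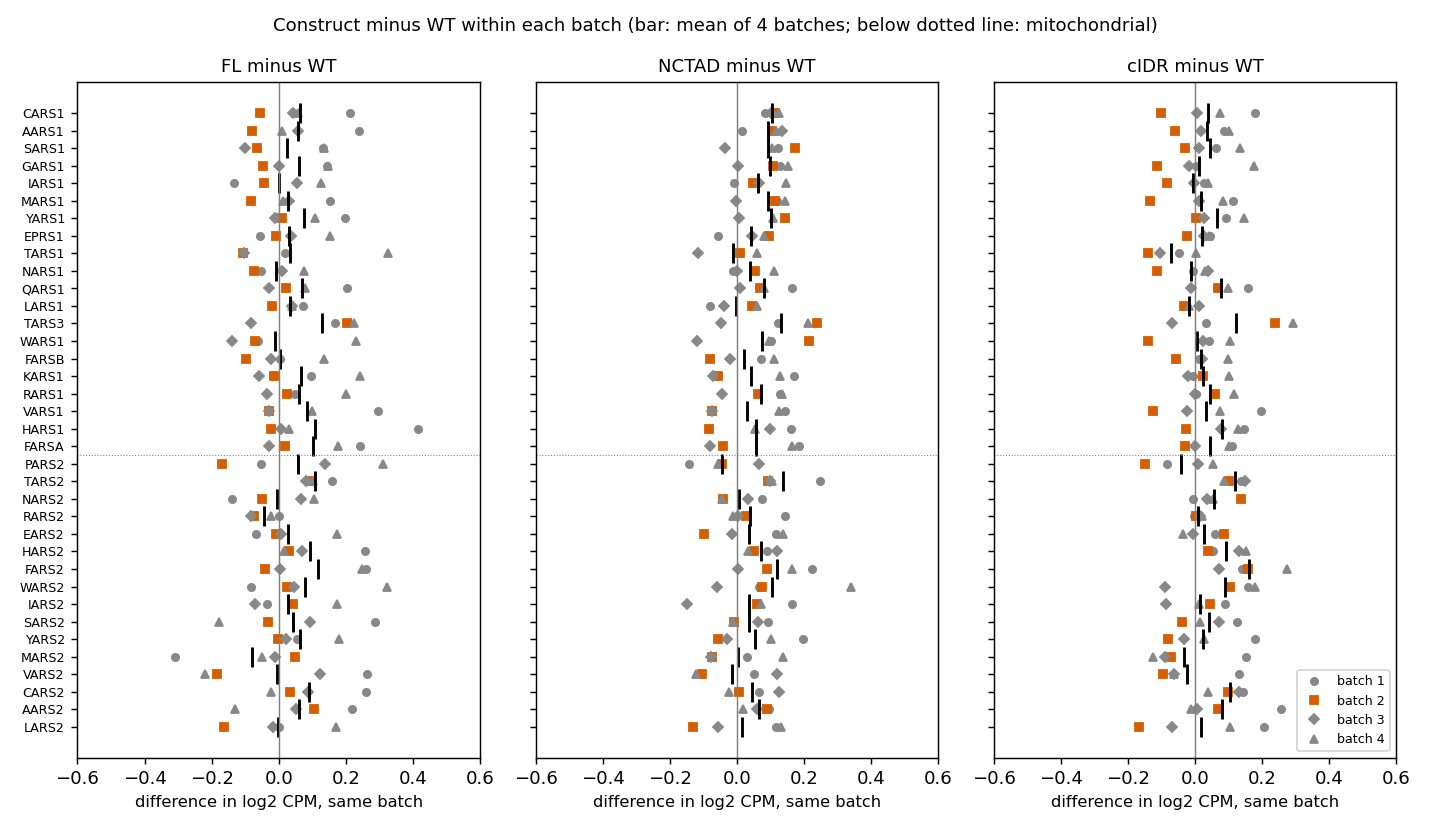
Difference in log2 CPM between each construct and WT of the same batch for the 36 genes, in the order of the batch 2 contrast within each compartment, with batch 2 in orange and the mean of 4 batches as a black bar. Points lie on both sides of 0 for most genes, and TARS2 is above 0 in all 4 batches in each panel.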

How the data were processed

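RNA-seq was analysed in 16 libraries, 4 per group. Per the labels, libraries were poly(A)-selected and stranded, with 250 ng input and 13 amplification cycles. The deposited estimated counts are the authors' salmon counts, per the name of the table, and are not scaled to depth. The deposited TPM values are the authors' salmon TPM. GRCh38, fastp, STAR, Salmon and featureCounts are named, without roles, in the submitters' processing notes. The annotation release is not given in the sources used here, so gene positions are those of GENCODE 29 on the same build, matched by identifier.

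Estimated counts, of which 15.5% were not whole (tolerance 0.0005), were rounded. Genes were filtered with filterByExpr by group, and 19530 were tested with edgeR 4.0.16 (R 4.3.3) after TMM normalization. Groups were compared in a model of group alone over 16 libraries, with the batch as a replicate block as the alternative. Batches were compared in a model of batch and group. Called means a Benjamini-Hochberg adjusted p under 0.05 over all tested genes. SE is the fitted change over the root of the F statistic. A prior count of 2 entered log2 CPM. The comparisons of batch 1 with batches 3 and 4, and of batch 3 with batch 4, were added after seeing the data. Limma 3.58.1 on log2(TPM + 1) and log2(TPM + 0.1) and DESeq2 1.42.0 were alternatives, beside other size factors, no filter, subsets of libraries and leaving out each library. Matplotlib 3.10.9 drew the figures.

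The labels give the replicate number as the batch, so same-numbered libraries are paired. Their deviations from group means had a mean correlation across genes of 0.308 (0.0674 to 0.712), against −0.0945 between libraries of different number. The biological coefficient of variation was 0.245 with group alone and 0.108 with the block. No library was a copy of another in its group (chi-square per degree of freedom at least 6.96). Nothing says that replicates were separate cultures, so p-values measure only the spread between these samples.

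The members and lists were chosen with earlier results of these data known. Named genes were all members, with values by library for the 12 of smallest adjusted p in batch 2, the 3 of smallest p in each group comparison, up to 4 called genes of each other list, and ATF4, EPAS1 and MYCN. Column names write CTRL for the WT libraries and WT for the FL libraries, and groups here follow the labels. The scripts were tested on simulated data with known changes.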

Additional observations from a re-analysis of the deposited data

Results flagged for a closer look

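In a group of 4 libraries a value was singled out when its gap to the nearest other exceeded Dixon's limit for the group's range. Chance does this in about 1 of 20 groups, and here it was 23 of 144 gene and group combinations, 22 of them for the library of batch 2. CARS1 had such a library in 4 of 4 groups, AARS1, GARS1 and MARS1 in 3, CARS2 in 2, and IARS1 and LARS2 in 1. Outside the 12 synthetases of smallest adjusted p in batch 2, 6 more had such a library, in 1 group each. The gap took 0.856 of the range for the mean log2 CPM of the mitochondrial enzymes in FL. For the cytosolic minus the mitochondrial mean it took 0.879 of the range in NCTAD and 0.974 in cIDR.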

How the results depend on the processing

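The number of synthetases called stayed at 0 in each of the 6 group comparisons under every alternative run, the replicate block and each library left out included (27 to 31 of 36 in the batch 2 comparison with 1 library left out, 25 to 29 under its other alternatives). On log2(TPM + 1) and log2(TPM + 0.1) the batch 2 medians were 0.266 and 0.268 for cytosolic and −0.052 and −0.054 for mitochondrial enzymes, and the latter was −0.087 against batch 1 alone. On the same scales, medians against WT were 0.0048 and 0.0048 for mitochondrial enzymes in FL, −0.042 and −0.045 for cytosolic and −0.053 and −0.054 for mitochondrial enzymes in NCTAD, and −0.049 and −0.049 for cytosolic and −0.023 and −0.024 for mitochondrial enzymes in cIDR. All-gene medians on log2(TPM + 1) were −0.020, −0.056 and −0.053 for FL, NCTAD and cIDR. Cytosolic medians against FL were −0.050 and −0.050 for NCTAD and −0.073 and −0.073 for cIDR. The mitochondrial median of cIDR against NCTAD, −0.0058, was 0.021 and 0.022 on TPM, 0.0012 without a filter, 0.0041 in the 8 libraries alone, 0.0028 without batch 2 and 0.0021 with the replicate block without batch 2. With 1 library left out, cytosolic medians ranged from −0.023 to 0.115 (NCTAD against WT), −0.059 to 0.059 (NCTAD against FL), −0.063 to 0.027 (cIDR against FL) and −0.070 to 0.037 (cIDR against NCTAD). Mitochondrial medians ranged from 0.0039 to 0.115 (FL against WT), 0.017 to 0.102 (NCTAD against WT), −0.050 to 0.037 (cIDR against FL) and −0.050 to 0.033 (cIDR against NCTAD). Of genes not called in batch 2, HARS2 was −0.050 and RARS2 −0.050 against batch 1 alone, and with 1 library left out WARS1 ranged from −0.015 to 0.109 and EARS2 from −0.011 to 0.079. RARS2 was called on TPM and against batches 3 and 4 alone, NARS2 against batch 3 alone and with batch only in the model, and TARS3 in the 12 transfected libraries. Calls were also gained without WT batch 3 (TARS3), WT batch 4 (WARS2), FL batch 1 (NARS2, RARS2, WARS2), FL batch 4 (NARS2) and NCTAD batch 1 (NARS2). The causes were not tested. The block moved the count of all genes called from 2 to 20, 5 to 89 and 2 to 95 against WT.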
